A study of Mus musculus with 8 samples.

Results

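The 10 genes described here make, coat and break down the triglyceride of lipid droplets: Gpam, Agpat2, Dgat1, Dgat2, Plin2, Plin5, Pnpla2, Abhd5, G0s2 and Lipe. They were chosen by name, with no measured value in the rule, and every non-control probe whose deposited gene name was one of the 10 symbols was taken. These were 18 of the 56605 distinct probes on the array, and 17 of the 18 could be tested. The 10 genes stand among 16037 genes with a tested probe.

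The RNA came from tibialis anterior, the fast muscle at the front of the shin, and the mice were C57BL/6J males 14 weeks old at sampling. In the P. gingivalis group (4 arrays) they had been given Porphyromonas gingivalis, a bacterium that lives without oxygen in the gum pocket, in 100 µL of saline through a feeding needle for 6 weeks from the age of 8 weeks, and the control group (4 arrays) was labelled control. The labels' protocols name a high-fat diet without distinction of group, but they also use group names that fit no sample title, so whether all of these mice ate it is uncertain. The sources used here do not say what the controls were given by needle, how many bacteria a dose held or at which hour muscle was taken, and the labels do not state outright that each array is 1 mouse, so p-values measure the spread between these samples.

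A lipid droplet is a core of triglyceride and sterol ester inside a single layer of phospholipid that carries coat proteins. In the glycerol phosphate pathway acyl groups are added stepwise to glycerol 3-phosphate until triglyceride is formed, and lipases later remove them one at a time to give fatty acids for oxidation. In skeletal muscle the droplets lie beside mitochondria and are a fuel store that turns over with feeding, fasting and exercise.

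Values are the log2 of the processed Cy3 signal less the 75th percentile of the same array, so 0 is the brightness of that percentile. A gene with several probes is represented by its brightest tested probe, and differences are P. gingivalis minus control. Every tested probe of the 10 genes was measured in 1 spot per array, and no such spot was an outlier. The deposited files disagree about the groups: the authors' value table of log2 signals gives 4 of the 8 arrays to the other group than the scanner files do. P. gingivalis 3, P. gingivalis 4, control 1 and control 2 have the same group in both. The scanner files' groups are used here, and genes whose direction or overlap changes under the other groups have that value beside them. All arrays lay on 1 slide, with the P. gingivalis arrays in row 2 and the control arrays in row 1, and the effects of row and treatment cannot be told apart. The value table's control group is the arrays of slide columns 1 and 2, and its P. gingivalis group those of columns 3 and 4. Under its groups, slide column and treatment likewise cannot be told apart. Before scaling, the 75th percentile of signal ran from 238 to 255 in the P. gingivalis arrays and from 275 to 306 in the control arrays.

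None of the 10 genes passed an adjusted p of 0.05 by limma. The same was true of all 31649 probes tested (0%), of which 3544 had an unadjusted p under 0.05 (11.2%, and 6.36% when only lower values in P. gingivalis muscle are counted). Of the 10 genes, 3 had a higher and 7 a lower mean in P. gingivalis muscle. Only Dgat2 had an unadjusted p under 0.05, which makes 1 of 10, beside 10.7% of all genes. Dgat2 and Agpat2, both lower in P. gingivalis muscle, were the 2 genes whose groups did not overlap, beside 7.06% of all genes in either direction and 3.83% of all genes with the P. gingivalis values below. The median log2 change was -0.06 over the 10 genes and -0.01 over all genes, and the median size of change was 0.10 and 0.09. The count at an unadjusted p under 0.05 is close to the share of all genes.

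**Figure D1:**
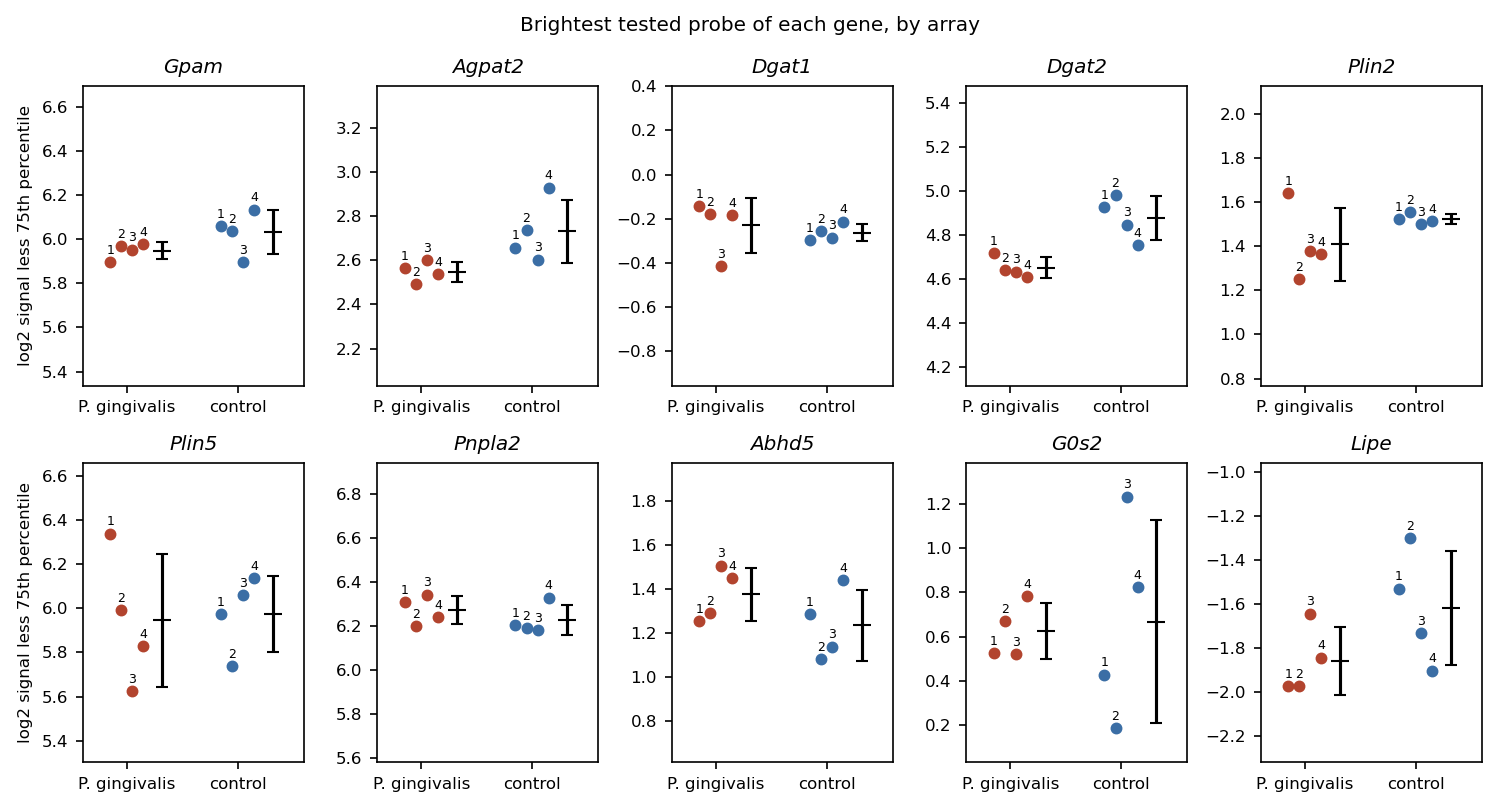
Log2 signal less the array's 75th percentile (vertical axis, same height of range in each panel) for the brightest tested probe of each gene, with the P. gingivalis arrays (red) left of the control arrays (blue), array numbers above the points and the mean with its SD in black. Dgat2 and Agpat2 have every P. gingivalis point below every control point, while G0s2 spreads from 0.18 to 1.23 among the controls.

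Synthesis begins with Gpam, the mitochondrial acyltransferase that adds the first acyl group to glycerol 3-phosphate. Its brightest probe (chr19:55142203-55142262, mm9, minus strand) read 5.90, 5.97, 5.95 and 5.98 in P. gingivalis muscle and 6.06, 6.04, 5.90 and 6.13 in control muscle. The values overlapped, with P. gingivalis 1 and control 3 equal to the second decimal. The difference was -0.08 ± 0.07 (SE; adjusted p = 0.66 by limma), and the second Gpam probe, listed under another transcript, averaged -1.48 in both groups. In the value table under its own labels the brightest probe differed by 0.02, the opposite direction.

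Agpat2, which adds the second acyl group to make phosphatidic acid, was read by a pair of probes listed under the same transcript. The brighter one was measured at 2.56, 2.49, 2.60 and 2.54 in P. gingivalis muscle and at 2.66, 2.74, 2.60 and 2.93 in control muscle. All 4 P. gingivalis values lay below all 4 control values, but P. gingivalis 3 and control 3 were equal to the second decimal, and control 4 was the highest. The fold was 0.881, and the log2 change of -0.18 had a 95% interval from -0.37 to 0.00 (adjusted p = 0.446 by limma). The dimmer probe gave a log2 change of -0.08 ± 0.11 (SE), and its groups overlapped. Under the value table's groups the brighter probe differed by 0.06, the opposite direction, with overlap. The letters of both are shown because they do not give the same picture of the gene. The brighter one lies at chr2:26448610-26448669 (mm9, minus strand), and its bases 31 to 60 are printed. The file places 27 bases of the dimmer one at chr2:26448577-26448603, and all 60 are printed.
Agpat2, brighter probe: ttggttctttttctataaatgaactctcag
Agpat2, dimmer probe: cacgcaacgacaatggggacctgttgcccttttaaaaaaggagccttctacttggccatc
An annotation of mm9 exons was not used here, so whether a probe lies in an exon, an intron or a UTR is not stated for any of the 10 genes.

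The final step, from diacylglycerol to triglyceride, can be run by either of the enzymes encoded by Dgat1 and Dgat2, which are unrelated in sequence. Dgat2 had the lowest p of the 10 genes. Its only probe read 4.72, 4.64, 4.63 and 4.61 in P. gingivalis muscle and 4.93, 4.98, 4.85 and 4.75 in control muscle. Each P. gingivalis array was below each control array, the nearest being P. gingivalis 1 and control 4. The mean was 4.65 ± 0.05 in P. gingivalis muscle and 4.88 ± 0.10 in control muscle (SD, n = 4 each). This is a fold of 0.855 (95% interval 0.767 to 0.952), with an adjusted p of 0.349 by limma, and 404 genes had a p at or below that of Dgat2. Under the value table's groups the difference was -0.11 with overlap (adjusted p = 1 by limma).

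Dgat1 did not share this difference. It stood at -0.14, -0.18, -0.41 and -0.18 in P. gingivalis muscle and at -0.30, -0.26, -0.29 and -0.21 in control muscle (chr15:76333128-76333274, mm9, minus strand, a span of 147 bases for a probe of 60). P. gingivalis 3 was below every other array and the other P. gingivalis arrays were above every control. The change was 0.03 ± 0.07 (SE; adjusted p = 0.886 by limma), and with the groups of the value table it was -0.06. The log ratio of Dgat2 to Dgat1, which is free of the array scaling, was 4.86, 4.82, 5.05 and 4.80 in P. gingivalis muscle and 5.23, 5.24, 5.13 and 4.97 in control muscle. The ratio differed by -0.26 ± 0.08 (SE), and its groups overlapped through P. gingivalis 3 and control 4.

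Among the other 19 genes of this pathway, from acyl-CoA synthetases to lipins, 18 were tested and 0 had an unadjusted p under 0.05 by limma in either direction. Their median log2 change was 0.02, with 10 higher and 8 lower. Acsl1, the main long-chain acyl-CoA synthetase of muscle and fat, differed by -0.17 ± 0.08 (SE; adjusted p = 0.453 by limma). Gpat2, a glycerol phosphate acyltransferase best known from testis, was well above background on 1 P. gingivalis array and all 4 control arrays, so it was tested only through the control arrays and no size is given for it.

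Plin2 encodes the perilipin that coats droplets in most cell types and is degraded when it is not bound to lipid. Its brighter probe (chr4:86302847-86302906, mm9, minus strand) read 1.64, 1.25, 1.38 and 1.36 in P. gingivalis muscle and 1.52, 1.55, 1.50 and 1.51 in control muscle. P. gingivalis 1 was the highest of all arrays and the other P. gingivalis arrays were the lowest, so the groups overlapped through a single array. The controls lay within an SD of 0.02, and the P. gingivalis arrays within 0.17. The change was -0.11 ± 0.09 (SE; adjusted p = 0.637 by limma). Without P. gingivalis 1 it was -0.19, with groups that did not overlap and an adjusted p of 0.448 by limma. The second Plin2 probe had a change of the same direction, -0.17 ± 0.08 (SE; adjusted p = 0.468 by limma).

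Plin5, the perilipin of oxidative tissues that tethers droplets to mitochondria, varied more than Plin2 among controls and differed less between groups. It read 6.34, 5.99, 5.62 and 5.83 in P. gingivalis muscle and 5.97, 5.74, 6.06 and 6.14 in control muscle (chr17:56251025-56251084, mm9, minus strand). The P. gingivalis arrays held both the highest and the lowest value. The changes on its probes were -0.03 ± 0.16 and -0.01 ± 0.11 (SE; adjusted p = 0.958 and 0.983 by limma), and the direction turned under 5 of the 21 alternatives. The log ratio of Plin2 to Plin5 differed by -0.08 ± 0.15 (SE) and overlapped.

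The other 16 genes of droplet coating and formation were all tested, and 3 had an unadjusted p under 0.05 by limma, all higher in P. gingivalis muscle (4.86% of all genes were called in that direction), with 0 past adjustment. They were Cideb, a droplet protein known from liver, Bscl2, which encodes the seipin of droplet formation sites, and Snap23, a membrane fusion protein. Cideb stood at -0.79, -0.84, -1.03 and -0.87 in P. gingivalis muscle and at -1.19, -1.18, -1.09 and -1.04 in control muscle. These groups were apart by little between P. gingivalis 3 and control 4, and another Cideb probe differed by -0.28, the opposite direction. Bscl2 differed by 0.16 ± 0.07 without overlap and Snap23 by 0.24 ± 0.09 with overlap (SE), and another Snap23 probe differed by -0.10, again the opposite direction. The median over the 16 genes was 0.05.

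Breakdown begins with Pnpla2, which encodes adipose triglyceride lipase. Its signal was 6.31, 6.20, 6.34 and 6.24 in P. gingivalis muscle and 6.20, 6.19, 6.18 and 6.33 in control muscle (chr7:148645928-148645987, mm9, plus strand). Control 4 reached the P. gingivalis values and the other controls lay at their lower edge. The fold was 1.03 (95% interval 0.934 to 1.14), with an adjusted p of 0.804 by limma.

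Abhd5, the protein that activates adipose triglyceride lipase and is also called CGI-58, was read by 3 probes. The brightest (chr9:122288857-122288916, mm9, plus strand) stood at 1.25, 1.29, 1.51 and 1.45 in P. gingivalis muscle and at 1.28, 1.08, 1.14 and 1.44 in control muscle, with overlap. Its change was 0.14 ± 0.10, and that of the second probe, listed under the same RefSeq transcript, was 0.14 ± 0.10 as well (SE; adjusted p = 0.618 and 0.615 by limma). The third, listed under a separate Ensembl transcript, differed by -0.13 ± 0.09 (SE; adjusted p = 0.6 by limma). It lies upstream of the others on the chromosome, at chr9:122268338-122268397 against chr9:122277200-122277259 for the second. The second is printed whole and the third by bases 31 to 60, because their directions differ. Capitals mark AATAAA, the letters of the canonical polyadenylation signal, read on the probe's strand. Whether any match in a probe acts as such a signal was not tested.
Abhd5, RefSeq transcript, second probe: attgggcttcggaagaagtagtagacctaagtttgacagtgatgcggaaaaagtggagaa
Abhd5, Ensembl transcript: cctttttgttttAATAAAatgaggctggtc
AATAAA occurred in 4 of the 18 probes of the 10 genes and in 9.77% of the 56605 probes of the array.

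G0s2 encodes the protein that inhibits adipose triglyceride lipase. It had the widest spread of the 10 genes, at 0.52, 0.67, 0.52 and 0.78 in P. gingivalis muscle and 0.43, 0.18, 1.23 and 0.82 in control muscle (chr1:195098925-195098984, mm9, minus strand). The control arrays enclosed the P. gingivalis arrays on both sides, with controls 1 and 2 the lowest and controls 3 and 4 the highest. The change was -0.04 ± 0.21 (SE; adjusted p = 0.954 by limma), and its sign depended on single arrays: 0.15 without control 3, 0.01 without control 4 and -0.20 without control 2. With the groups of the value table it was 0.39 (adjusted p = 1 by limma). The log ratio of Pnpla2 to its inhibitor was 5.65 ± 0.18 in P. gingivalis muscle and 5.56 ± 0.46 in control muscle (SD, n = 4 each), a difference of 0.09 ± 0.25 (SE).

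Lipe encodes hormone-sensitive lipase, which takes diacylglycerol onward, and its 3 probes are listed under different transcripts. The brightest, listed under a cDNA clone outside RefSeq, stood at -1.97, -1.97, -1.64 and -1.84 in P. gingivalis muscle and at -1.53, -1.30, -1.73 and -1.90 in control muscle. Controls 1 and 2 were the highest of all arrays and controls 3 and 4 were among the P. gingivalis values. Its change was -0.24 ± 0.14 (SE; adjusted p = 0.537 by limma). The probe of the RefSeq transcript was at -1.70, -2.15, -1.90 and -1.90 in P. gingivalis muscle and at -2.16, -2.09, -1.83 and -1.66 in control muscle. It overlapped fully and differed by 0.02 ± 0.14 (SE; adjusted p = 0.962 by limma), so the lower mean of the brightest probe was not seen on it. The third probe, listed under another Ensembl transcript, was not well above background on any of the 8 arrays. The probes lie at chr7:26167986-26168045 (brightest), chr7:26165828-26165887 (RefSeq) and chr7:26182789-26182848 (Ensembl), all on the minus strand of mm9. They are printed because the probes under the name Lipe lie at separate places, the brightest by bases 31 to 60 and the other two whole, with AATAAA in capitals.
Lipe, cDNA clone: atgtcacaattccaggaattgcctaaaaaa
Lipe, RefSeq transcript: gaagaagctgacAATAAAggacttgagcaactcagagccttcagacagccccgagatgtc
Lipe, Ensembl transcript: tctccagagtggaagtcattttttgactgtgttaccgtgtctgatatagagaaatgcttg
The log ratio of Lipe to Pnpla2, with the brightest probe of each, differed by -0.29 ± 0.17 (SE) and overlapped.

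**Figure D2:**
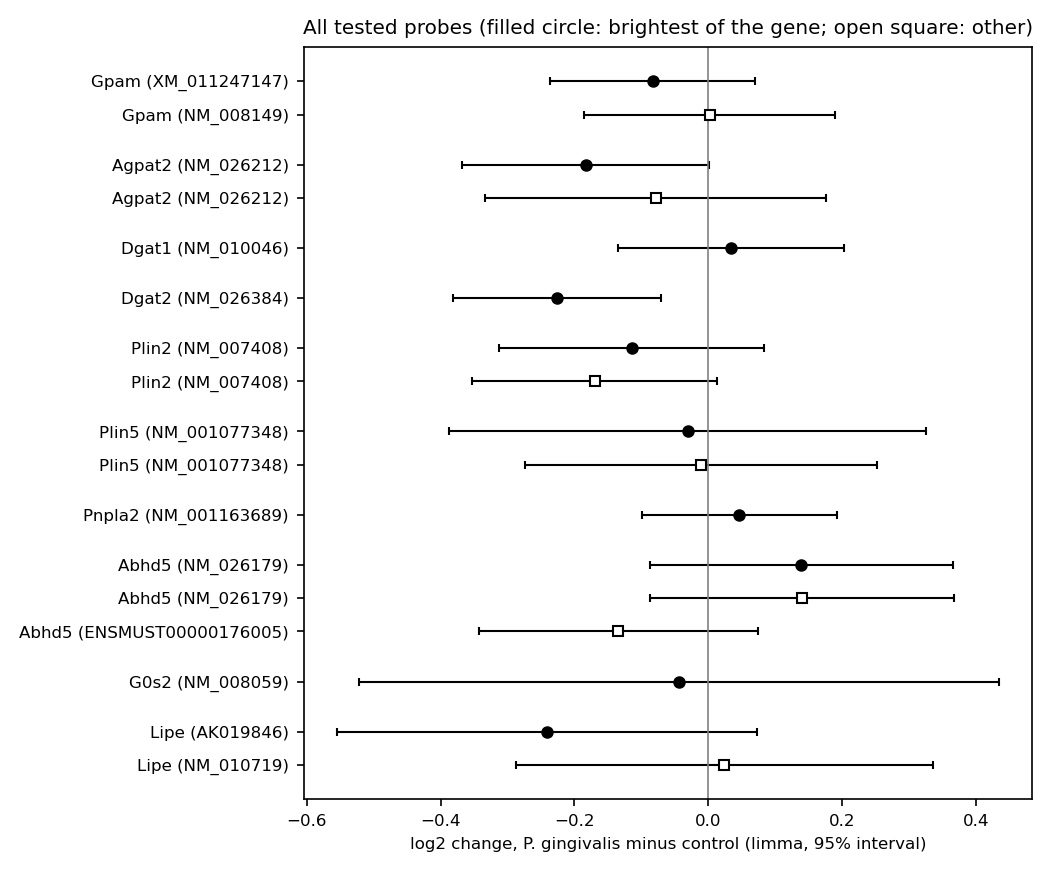
Log2 change, P. gingivalis minus control, with its 95% interval from limma for the 17 tested probes, named by gene and the transcript the array file lists. The Dgat2 interval alone lies wholly below 0. The Lipe, Abhd5 and Gpam probes listed under different transcripts fall on both sides of 0, the second Gpam probe at 0.002.

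Of the other 18 lipolysis genes and regulators, 16 were tested and only Gpihbp1 had an unadjusted p under 0.05 by limma (lower, against 5.83% of all genes in that direction). Gpihbp1 encodes the capillary protein that holds lipoprotein lipase. It read 3.88, 3.90, 3.72 and 3.72 in P. gingivalis muscle and 3.96, 3.93, 4.14 and 4.08 in control muscle. The groups did not overlap, P. gingivalis 2 and control 2 being closest, and the change was -0.22 ± 0.08 (SE; adjusted p = 0.384 by limma). Of 8 endothelial markers all 8 had a lower mean in P. gingivalis muscle, and their score ran from -0.22 to 0.14 there and from 0.01 to 0.24 in control muscle. Of that list 2 of 8, Kdr and Cldn5, had an unadjusted p under 0.05 beside 5.83% of all genes in that direction, at -0.59 ± 0.15 and -0.44 ± 0.15 (SE; adjusted p = 0.323 and 0.372 by limma), and the other 6 lay between -0.13 and -0.01. In whole muscle, fewer cells of a type and less RNA per cell cannot be told apart, and the part of endothelial RNA in the Gpihbp1 difference was not tested.

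Several of the 10 genes are known targets of the fatty acid sensors called PPARs, so 20 other PPAR targets were counted. By limma 19 were tested, and 0 passed adjustment. At an unadjusted p under 0.05, 2 were higher and 4 lower, beside 4.86% and 5.83% of all genes. The higher ones were the mitochondrial carriers Ucp2 (0.39 ± 0.12) and Ucp3 (0.26 ± 0.10). The lower ones were the acyl-CoA thioesterases Acot1 (-0.56 ± 0.21) and Acot2 (-0.43 ± 0.15), the long-chain acyl-CoA dehydrogenase Acadl (-0.14 ± 0.06) and the lipoprotein receptor Vldlr (-0.17 ± 0.07; SE throughout). Ucp2 and Acadl had groups that did not overlap, which makes 2 of 19 beside 7.06% of all genes. The median over the 19 genes was -0.04.

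Adipocytes between the fibres hold many of the same transcripts, so their markers were set beside the 10 genes. Of 8 adipocyte markers 7 were tested, with 5 higher and 2 lower means in P. gingivalis muscle. Adipoq, the gene of the fat hormone adiponectin, stood at 0.60, -0.88, 0.00 and -1.22 in P. gingivalis muscle and at -0.15, -1.54, 0.65 and -1.19 in control muscle. The adipocyte score, the mean of the centred values of the 7 markers, was 0.63, -0.39, 0.29 and -0.64 in P. gingivalis muscle and 0.26, -0.27, 0.48 and -0.37 in control muscle. High and low arrays occurred in both groups with a gap between them, so a pooled correlation of the 10 genes with this score is not given. The range over all arrays was 1.27 for the score and at most 1.05 for any of the 10 genes, that of G0s2. The 7 markers were not alike in spread: Adipoq had an SD of 0.83 in P. gingivalis and 0.999 in control arrays, while Lep had 0.05 and 0.10 and Fabp4 0.10 and 0.12. Among the 10 genes the SD was at most 0.30 in P. gingivalis and 0.46 in control arrays. Fabp4, a fatty acid binding protein of adipocytes and capillaries, was the marker with an unadjusted p under 0.05, at -0.24 ± 0.08 (SE; adjusted p = 0.384 by limma). Of 5 brown adipocyte markers, Ucp1 and Elovl3 were well above background on no array. The 3 tested, Cidea, Cox8b and Zic1, were well above background on all 8 arrays. Their means were lower in P. gingivalis muscle by log2 changes of -0.11, -0.03 and -0.04, 0 of them at an unadjusted p under 0.05 by limma.

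**Figure D3:**
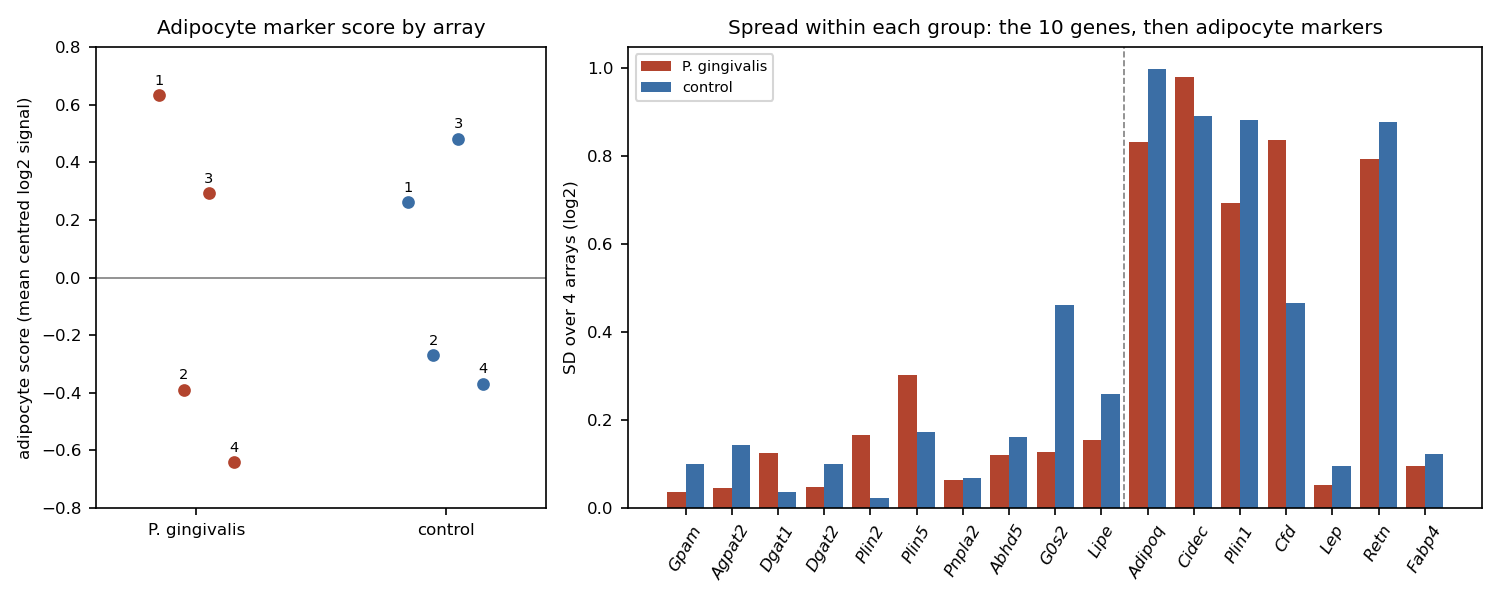
Left, the adipocyte marker score (mean centred log2 signal) of each array, P. gingivalis (red) left of control (blue), with array numbers; right, the SD over 4 arrays in each group for the 10 genes and then for the adipocyte markers. The score runs from -0.64 to 0.63 with high and low arrays in both groups. The marker SD runs from 0.05 (Lep) to 0.98 (Cidec) in P. gingivalis arrays and from 0.10 (Lep) to 0.999 (Adipoq) in control arrays. For the 10 genes it is at most 0.30 and 0.46.

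Markers of other cell types were counted beside these genes, with 0 past adjustment in each list. Of the fast fibre markers that define this muscle, 12 of 12 were tested, 11 had a higher mean in P. gingivalis muscle, and Myl1, the only one at an unadjusted p under 0.05, differed by 0.25 ± 0.06 (SE) on its brightest probe and by -0.03 on another. The fast fibre score ran from 0.02 to 0.12 in P. gingivalis muscle and from -0.14 to -0.0001 in control muscle, without overlap. All 8 slow fibre markers had a higher mean, 0 of them at an unadjusted p under 0.05, and their score overlapped, from -0.58 to 0.64 in P. gingivalis muscle and -0.50 to 0.48 in control muscle. Fibroblast markers were higher in 8 of 8, with a score from 0.095 to 0.471 against -0.694 to 0.087, without overlap. Means were also higher in 4 of 4 tendon and 7 of 8 macrophage markers. At an unadjusted p under 0.05 by limma, 4 fibroblast, 1 tendon and 3 macrophage markers were higher, beside 4.86% of all genes. All 4 tested neutrophil markers were lower, with a score from -1.46 to -0.41 against -0.51 to 1.45. Of these 4, S100a8 and S100a9 made 2 at an unadjusted p under 0.05 by limma, beside 5.83% of all genes in that direction. S100a9 differed by -2.93, and S100a8 was above background on just 2 arrays of the P. gingivalis group. Ly6g and Camp differed by only -0.10 and -0.04. The part of these cell types in the values of the 10 genes was not tested.

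The groups a file gives changed which of the 10 genes had an unadjusted p under 0.05. With the groups of the value table it was G0s2 in place of Dgat2, beside 3.52% of all genes. No groups were apart there, beside 2.43% of all genes, and Dgat1, Agpat2 and G0s2 had the opposite direction. Over the 4 arrays whose group both files share, Dgat2 differed by -0.33, Abhd5 by 0.29 and G0s2 by 0.35, and 8 of the 10 genes did not overlap, where 44.0% of all genes did not. Across all 21 alternatives, Dgat2, Plin2 and Lipe were lower and Abhd5 was higher in each, and none of the 10 genes passed adjustment in any.

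**Figure D4:**
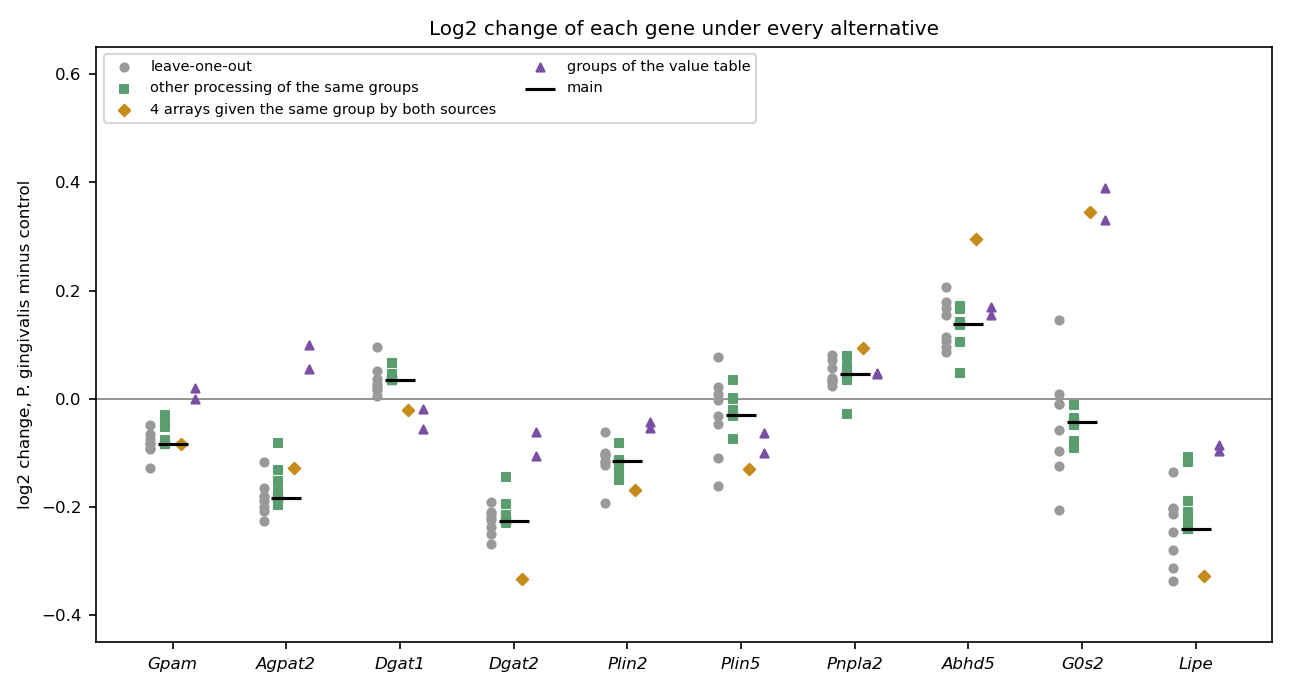
Log2 change of each gene, P. gingivalis minus control, in the fit reported here (black line) and under the 21 alternatives (points), by kind. Dgat2 stays below 0 throughout, at -0.11 on the scanner signals with the groups of the value table and at most -0.06 under any alternative. Agpat2, Dgat1 and G0s2 lie on the other side of 0 under those groups. Gpam does so, at 0.02, only in the value table under its own labels.

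By likeness over the 8 arrays, the genes whose values followed those of Dgat2 most closely among 16032 genes were Themis2 (Pearson r = 0.978), Gm29720 (0.977), Ptcd3 (0.967), Ptges3 (0.966) and Nelfa (0.962). They were picked for the highest r among so many genes on few arrays, so a high r is given by the choice. All had a lower mean in P. gingivalis muscle, as Dgat2 had, and r over both groups takes in that difference.

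Promoter sequence from RefSeq (GRCm38.p6, 250 bases before to 50 after the start) was matched for 8 of the 10 genes, all but Dgat1 and Dgat2, taking the first entry of a gene. Motifs were searched by their letters on both strands. GGGCGG, the GC box bound by SP factors, was in 7 of the 8, in all but Gpam, and in 35.9% of 27025 promoters of that length. AGGTCA, the core of many nuclear receptor sites, was in Plin2, Plin5 and Abhd5 (16.0% of all), and the direct repeat of it with 1 base between the copies was in 0 of the 8 (0.0444% of all). CACGTG, an E-box, was in Plin2 and Lipe (7.24% of all), and TATAAA was in 0 of the 8 (14.2% of all). The 250 bases before the Agpat2 start (chr2:26604418-26604667, GRCm38.p6, minus strand) are shown as the promoter of the gene that, with Dgat2, had groups apart, with both overlapping GGGCGG matches in capitals.
Agpat2 promoter: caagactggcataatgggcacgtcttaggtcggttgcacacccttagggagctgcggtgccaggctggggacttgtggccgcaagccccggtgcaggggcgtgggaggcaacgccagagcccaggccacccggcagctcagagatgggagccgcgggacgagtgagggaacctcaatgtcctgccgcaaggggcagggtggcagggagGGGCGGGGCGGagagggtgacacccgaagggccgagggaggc
A match is a description of letters and was not tied to any difference above.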

How the data were processed

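The deposited intensity of each spot was written by Agilent Feature Extraction, which is 11.0.1.1 in the file headers and 11.1 in the submitters' processing notes. Per the file headers it was background-subtracted within the array, with no step that ties arrays together. A second deposited table by the authors holds log2 values of 24764 probes with nearly equal quantiles. The scaling of that table is not given in the sources used here. Its columns were matched to arrays by correlation: 2 of 8 met the array of the same label and 4 of 8 one of the same group.

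From log2 of the processed intensity, the 75th percentile of an array's non-control spots was subtracted. Probes well above background on at least 4 of 8 arrays were tested (31649) with limma 3.58.1 in R 4.3.3 (lmFit, eBayes, no covariate, two-sided), adjusted by Benjamini-Hochberg over all of them. Gene names follow RefSeq's table for GRCm38.p6. The number of arrays limits precision. Spots well above background made up 56.3% to 59.3% of an array, and 0 were saturated.

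The 10 genes, the gene lists and the tests were chosen with earlier results of these data known. All 10 genes are named. From each list the genes at an unadjusted p under 0.05 are named, or else the 2 of lowest p, and for some marker lists only counts are given. On simulated data with 200 changed probes at a log2 change of 1, 143 were recovered, with 8 false calls. That change is larger than the one seen for any of the 10 genes, and recovery at their sizes was not tested. The 21 alternatives changed scaling, background correction, filter, variance model, groups and arrays. Same-numbered arrays shared a slide column. With the mean of each group removed they correlated at 0.0069 to 0.063, all under 0.1, so they were not taken as pairs. The sequence of 1 probe is not reported here.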

Additional observations from a re-analysis of the deposited data

Results flagged for a closer look

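In 62 groups of 4 arrays (17 tested probes of the 10 genes, 5 log ratios between them and 9 marker scores, in both groups), 5 had 1 array far from the other three, judged by its gap relative to the range of the group. Chance flags about 1 in 20 groups. On the Dgat1 probe P. gingivalis 3 read -0.41, with the others from -0.18 to -0.14. On the dimmer Plin5 probe control 2 read 5.03, with the other controls from 5.30 to 5.36. For Pnpla2 control 4 read 6.33, with the other controls from 6.18 to 6.20. The endothelial score of control 4 was 0.24, with the other controls from 0.01 to 0.04. The neutrophil score of control 3 was -0.51, with the other controls from 1.14 to 1.45.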

How the results depend on the processing

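None of the 10 genes passed an adjusted p of 0.05 under any of the 21 alternatives. Dgat2 was lower in P. gingivalis muscle in 21 of 21, with an unadjusted p under 0.05 in 19 and groups apart in 18; the lowest adjusted p was 0.067, with normexp background correction. Agpat2 kept its direction in 19 and its groups apart in 16. Leaving out 1 array at a time, 1 to 2 of the 10 genes had an unadjusted p under 0.05 and 2 to 3 had groups apart. Of all genes, 8.11% to 11.8% had such a p and 10.1% to 13.3% had groups apart in those fits. The count at such a p among the 10 genes was 2 without P. gingivalis 1, where Plin2 joined Dgat2. It was 2 without control 3 (Agpat2 joined) and without control 4 (Lipe joined). It was also 2 with normexp correction, with an intensity trend in the variance, with probes well above background on all 8 arrays and with array weights. Such a p was held by 26.4%, 13.1%, 11.6% and 11.05% of all genes under these settings, in that order. The count of 2 of the 10 is thus below the share of all genes with normexp and above it with the others. Groups were apart in 1 of the 10 with the mean over the probes of a gene, a median shift, quantile normalization or the value table matched to the scanner files. Of all genes, 6.52% to 7.28% were apart under these. Over the 4 arrays both sources agree on, 8 of the 10 were apart (44.0% of all genes). With the groups of the value table or that table under its own labels it was 0 (2.43% and 2.27% of all genes). Probes past adjustment numbered 2 without the filter on dim probes, 14 with normexp, 2 with the variance trend and 1 in the matched value table. At an unadjusted p under 0.05 there were 9094 with normexp, 1224 with the value table's groups and 906 under that table's own labels. Of the probes at an unadjusted p under 0.05, 56.8% were lower in P. gingivalis muscle, against 37.7% with a median shift, 21.5% with normexp and 46.5% without the filter. Why these counts moved was not tested. With a replicate block, 0 probes passed adjustment and 3406 had an unadjusted p under 0.05. Of the 10 genes 1 had such a p (9.55% of all genes) and 2 had groups apart (7.06% of all genes). Arrays of the same number also shared a slide column, and with the mean of each group removed they correlated at 0.0069 to 0.063. All 17 tested probes were well above background on all 8 arrays, so the number of arrays sets their precision: the 95% intervals of the 10 genes lay between folds of 0.681 and 1.35.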
